A study of Homo sapiens with 12 samples.

Results

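The data compare the effect of VGF overexpression between 2 established human non-small-cell lung cancer lines. For every feature the log2 change between the VGF vector and the empty vector was taken in H1299, the same change in A549 was subtracted, and the difference was tested. All 12 libraries of the series enter this difference, 3 in each of 4 groups. A549 cells carried an empty lentiviral vector (genotype label WT) or the VGF lentivirus (VGF-OE), and H1299 cells carried the same pair of vectors. The series' design text describes the 3 replicates of each group as biologically independent. A549 is a lung adenocarcinoma line and was grown in DMEM/F12, while H1299 is a large-cell carcinoma line and was grown in RPMI-1640, both with 10% serum. Line and medium therefore cannot be told apart, and a line-dependent effect also includes any dependence on medium. No source used here gives the time after transduction, a selection step or whether a single clone was taken.

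VGF encodes a secreted precursor protein of neuroendocrine cells and neurons. It is sorted into dense-core granules, where it is cut into peptides that act on other cells. Such granules belong to the regulated secretory pathway, which most lung carcinoma cells use little, and a cell without it may release the precursor uncut. A positive difference below means that the log2 change was higher in H1299 than in A549. It does not by itself say which line moved, so the change or level of each named gene in each line is given as well.

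Library totals ran from 31378171 to 41919484 counts. Levels of single genes are given as CPM, counts scaled to the library total and its TMM factor. A feature was called when the Benjamini-Hochberg adjusted p of the edgeR quasi-likelihood test was under 0.05 over the 18228 features tested, and adjusted p values of genes are those of this test where no other tool is given. The epithelial marker list (13 genes) summed to between 6924 and 9048 CPM in A549 libraries and between 1018 and 1170 CPM in H1299 libraries. A549-VGF OE-2 stood apart: its 22 endothelial marker genes summed to 713.5 CPM, against 83.2 to 99.8 CPM in the other A549 libraries and 36.3 to 41.7 CPM in H1299. All 22 were detected in that library, and 2 to 12 of them were at 0 in the other A549 libraries. In bulk RNA, fewer cells of a type and less RNA per cell cannot be told apart. H1299-CTRL-2 also stood apart. Among 331 features of at least 20 CPM in A549 and under 2% of that level in H1299, the median level as a share of the A549 mean was 0.411% in that library, against 0.138% and 0.141% in the other H1299 control libraries and 0.0740 to 0.106% in the H1299 VGF libraries. For 144 features with the reverse pattern, the summed level was 110.6 CPM in A549-VGF OE-2 and 20.7 to 27.7 CPM in the other 5 A549 libraries. Called genes are given without either library where leaving it out ended the call. The gene lists described below are given so where it moved a median by over 1.5 times or changed which members were called.

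**Figure D1:**
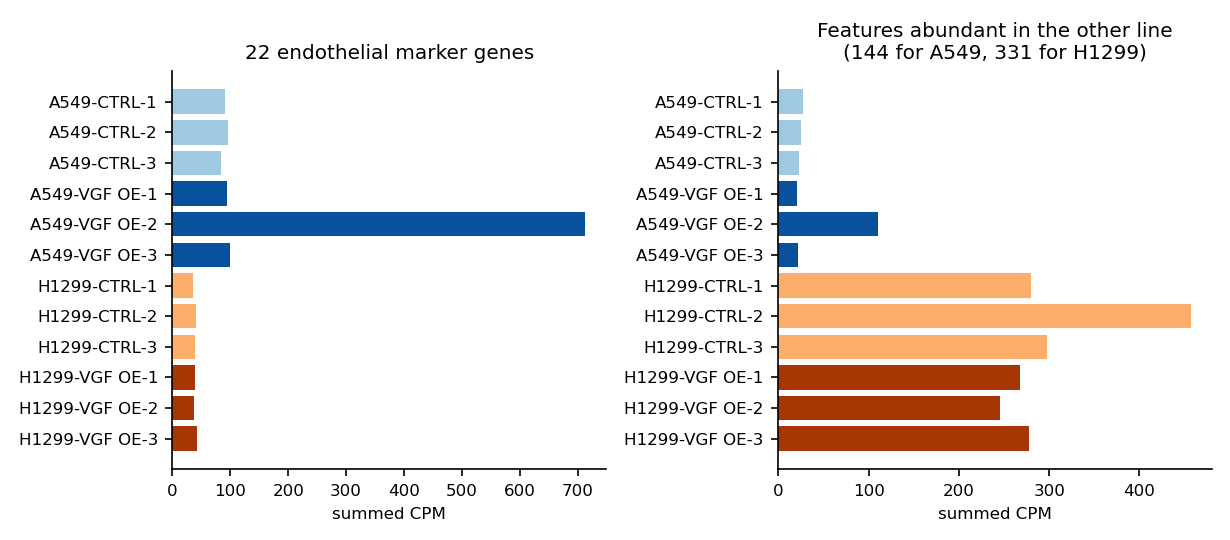
Summed CPM by library of 22 endothelial marker genes (left) and of features abundant in the other line (right), with light bars for empty vector and dark bars for VGF. A549-VGF OE-2 has the longest endothelial bar (713.5 CPM), and H1299-CTRL-2 has the longest bar of A549 features (457.6 CPM, against 245.9 to 297.9 in the other H1299 libraries).

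The VGF effect differed between the lines for 29 of the 18228 features (0.159%), with 16 higher in H1299 (0.0878%) and 13 lower (0.0713%). They include VGF itself, secreted and matrix genes (TGFBI, SPP1, FBN2), cancer-testis antigens (MAGEA3, MAGEA6), neural adhesion genes (ADGRB3, NRXN3, TENM2), a MAP kinase phosphatase (DUSP5) and regulators of WNT signalling (SHISA3, RNF43). For 20 of the 29 the change was called in A549 and not in H1299, for 8 it was called in neither line, and VGF alone was called in both. In the separate lines 144 features were called in A549 (0.79%) and 2 in H1299 (0.011%). The changes of the 2 lines had opposite signs for 20 of the 29. Of all 29, 18 reached at least 1 CPM in both lines, while 6 stayed under 1 CPM in H1299 alone, 3 in A549 alone, and TENM2 and ERICH6 in both.

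At an unadjusted p under 0.05 there were 2034 differences, or 11.2% of the features, with 790 positive (4.33%) and 1244 negative (6.82%). The 9 treated-control pairs of a line are all combinations of its 3 control and 3 VGF libraries, not 9 separate observations. The pairs of one line did not overlap those of the other for any of the 29 called features, against 6.03% of all features. The 29 were called on the same libraries, so this separation adds no separate evidence. The count depended on the method: DESeq2 called 315 and limma voom 19. With 1 library left out it was 19 without A549-CTRL-1, 18 without H1299-CTRL-2 and 19 without H1299-VGF OE-1, and 12 of the 29 were called whichever library was left out. Without H1299-CTRL-2, 16 of the 29 were still called. The 12 were VGF, MAGEA3, PAK3, TGFBI, ADGRB3, DUSP5, SPP1, MAGEA6, CDCA7L, WIPF1, EDA2R and 1 locus named by the authors.

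VGF (ENSG00000128564, GRCh38 chromosome 7, 101162509 to 101165593, minus strand) had 2.74, 2.54 and 2.01 CPM in the A549 control libraries and 1361, 1200 and 1287 CPM in the A549 VGF libraries. In H1299 it had 77.2, 90.5 and 89.0 CPM with the empty vector and 886, 941 and 1114 CPM with VGF. With the empty vector every H1299 library was above every A549 library, and with VGF every A549 library was above every H1299 library. Counts per gene do not tell transcripts of the vector from those of the cells' own VGF gene. The log2 difference also carries the difference in starting level. The log2 change was 9.04 (SE 0.137) in A549 and 3.52 (SE 0.0980) in H1299, a difference of -5.52 (SE 0.157, adjusted p = 1.49e-09). In CPM the step was 1280 in A549 and 894.6 in H1299.

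TGFBI, SPP1 and DUSP5 had changes of opposite sign in the 2 lines. TGFBI (ENSG00000120708, chromosome 5, 136028895 to 136063818, plus strand), a secreted matrix protein induced by TGF-beta, had 718, 753 and 807 CPM in the A549 controls and 974, 867 and 944 CPM with VGF. In H1299 it had 28.7, 30.6 and 27.2 CPM with the empty vector and 22.6, 20.01 and 21.002 CPM with VGF. The VGF libraries were above the controls in A549 and below them in H1299, with no overlap in either line. Neither change was called alone (0.29, SE 0.0611, adjusted p = 0.0528 in A549 and -0.44, SE 0.0680, adjusted p = 0.0704 in H1299), while their difference was (-0.73, SE 0.0914, adjusted p = 0.0125).

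SPP1 (ENSG00000118785, chromosome 4, 87975650 to 87983426, plus strand) encodes osteopontin, a secreted ligand of integrins and CD44. It had 125.4, 129.7 and 125.5 CPM in the A549 controls against 155.5, 145.0 and 154.6 CPM with VGF. In H1299 the values were 17.99, 16.9 and 15.8 CPM against 13.4, 11.6 and 13.2 CPM. The groups did not overlap in either line, and the order was reversed between them. The difference was -0.66 (SE 0.0891, adjusted p = 0.0125), and as for TGFBI neither line alone was called (adjusted p = 0.0690 in A549 and 0.0881 in H1299).

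DUSP5 (ENSG00000138166, chromosome 10, 110497838 to 110511544, plus strand), a nuclear phosphatase that is induced by ERK and inactivates it, went the other way. It had 81.9, 85.7 and 92.2 CPM in the A549 controls and 68.2, 61.6 and 64.7 CPM with VGF. In H1299 it had 76.9, 80.0 and 66.7 CPM and then 92.8, 97.5 and 92.8 CPM. Every A549 library was above every H1299 library with the empty vector, and the order was reversed with VGF. The log2 change was -0.42 (SE 0.0707, adjusted p = 0.0210) in A549 and 0.34 (SE 0.0699, adjusted p = 0.148) in H1299, and the difference was 0.76 (SE 0.0994, adjusted p = 0.0125).

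**Figure D2:**
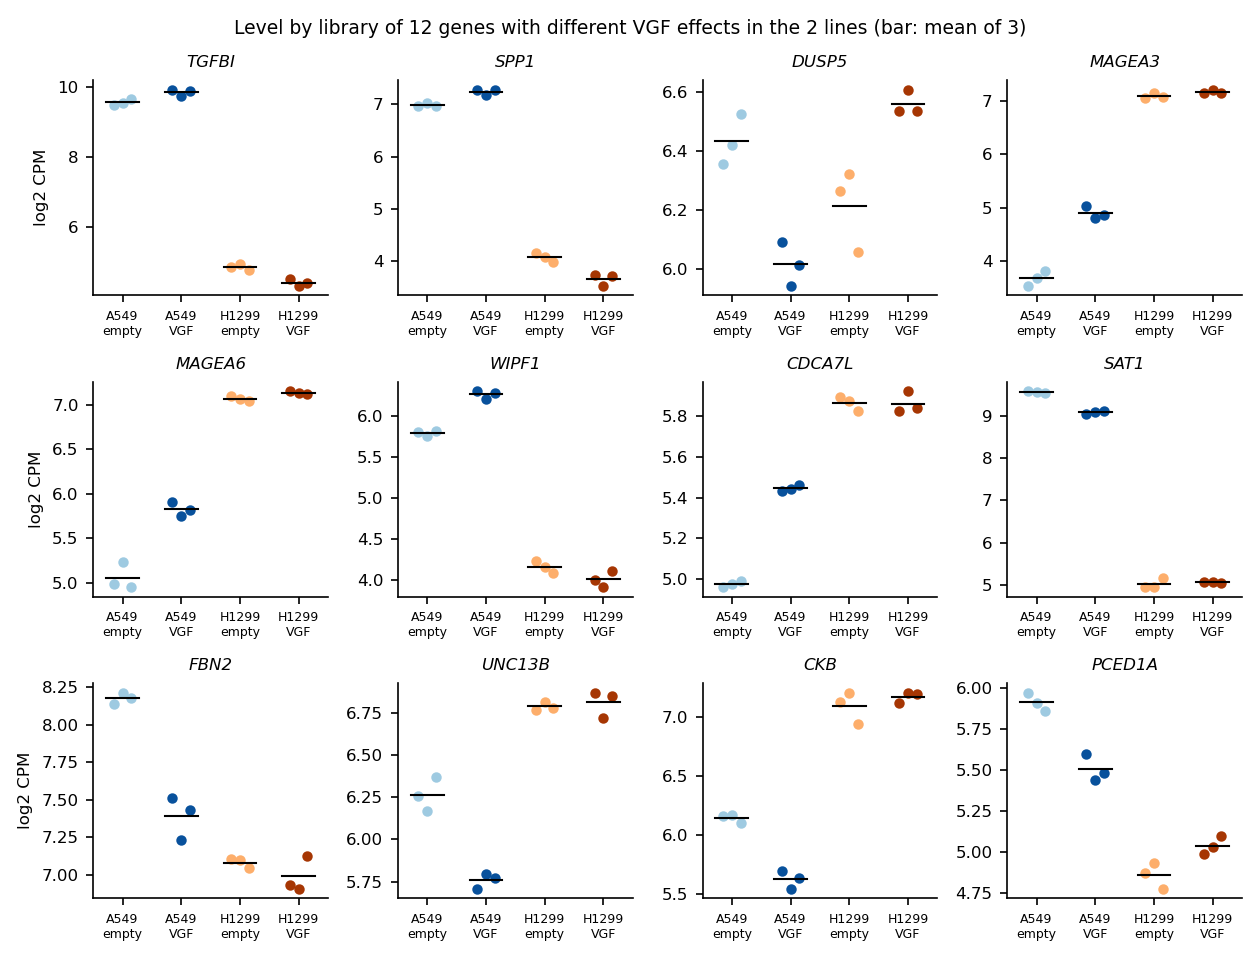
Level by library, on a log2 CPM axis that differs between panels, of 12 genes with different VGF effects in the 2 lines. Each point is a library and each bar the mean of the 3 log2 values. TGFBI and SPP1 step up in A549 and down in H1299, DUSP5 does the reverse, and the other 9 genes shift in A549 by more than in H1299.

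MAGEA3 and MAGEA6 are paralogs on the X chromosome and encode cancer-testis antigens, proteins that are normally made in germ cells and reappear in tumours. Their promoters are known to be silenced by methylation of CpG sites. They moved together, and the bases before their starts are shown because they are the same in both genes. The sequence below is RefSeq's (GRCh38.p14) and covers the bases from 250 to 59 before each RefSeq start, chrX:152698544-152698735 on the plus strand for MAGEA3 and chrX:152769748-152769939 on the minus strand for MAGEA6. Capitals mark the 7 CpG sites.
MAGEA3 and MAGEA6: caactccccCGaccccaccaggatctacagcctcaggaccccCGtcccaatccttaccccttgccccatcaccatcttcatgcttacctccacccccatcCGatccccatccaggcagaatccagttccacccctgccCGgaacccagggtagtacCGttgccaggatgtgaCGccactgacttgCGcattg
The 192 bases differ at 0 positions. The median over the same window of all 35116 promoters in the RefSeq table was also 7 CpG sites. The window holds 1 match to CCGGAA, the core bound by ETS factors, searched on both strands, as do 9.41% of the windows. No methylation was measured in these libraries.

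MAGEA3 (ENSG00000221867, 152698752 to 152702347, plus strand) had 11.7, 13.0 and 14.1 CPM in the A549 controls and 32.6, 27.98 and 29.03 CPM with VGF. In H1299 it had 133.9, 142.0 and 135.3 CPM with the empty vector and 142.4, 148.0 and 141.8 CPM with VGF. Every H1299 library was thus above every A549 library, and the A549 groups did not overlap. The log2 change was 1.21 (SE 0.0748, adjusted p = 9.41e-06) in A549 and 0.07 (SE 0.0656, adjusted p = 0.913) in H1299, a difference of -1.14 (SE 0.0994, adjusted p = 0.000534).

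MAGEA6 (ENSG00000197172, 152766136 to 152769747, minus strand) had 31.7, 37.6 and 31.0 CPM in the A549 controls and 60.3, 54.1 and 56.3 CPM with VGF. In H1299 it had 136.9, 133.9 and 131.2 CPM with the empty vector and 142.0, 140.5 and 139.2 CPM with VGF. The groups did not overlap in either line, though the H1299 change was not called (0.07, SE 0.0653, adjusted p = 0.921). The log2 change in A549 was 0.77 (SE 0.0689), smaller than that of MAGEA3. The difference was -0.70 (SE 0.0948, adjusted p = 0.0125). Of the 100-base stretches of the MAGEA3 transcripts in GENCODE 29, 34.9% also occur in MAGEA6, so reads from such stretches cannot be assigned to 1 gene and the split between the 2 is uncertain. Of 16 tested members of the cancer-testis list these were the 2 called, against 0.159% of all features. Because the 2 genes share such stretches, they do not count as separate results. Over the 16 members 9 had a positive difference, and the median was 0.51, or 0.94 without A549-VGF OE-2. Only 4 of the 16 reached 1 CPM in both lines, with 0 positive and a median of -0.43.

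WIPF1 and CDCA7L also rose in A549. WIPF1, a partner of WASP that promotes actin filament branching, had 56.0, 54.2 and 56.3 CPM in the A549 controls and 79.0, 74.2 and 77.9 CPM with VGF. In H1299 it lay between 16.9 and 18.7 CPM with the empty vector and between 15.1 and 17.2 CPM with VGF, overlapping groups. The difference was -0.62 (SE 0.0850, adjusted p = 0.0125). CDCA7L, a MYC-interacting nuclear protein, had 31.1 to 31.7 CPM in the A549 controls and 43.1 to 44.0 CPM with VGF, while the H1299 libraries ran from 56.7 to 59.4 CPM and from 56.7 to 60.6 CPM. Its difference was -0.47 (SE 0.0646, adjusted p = 0.0125). In GENCODE 29 the exons of CDCA7L share 20.4% of their bases with DNAH11 on the opposite strand, so part of its count is uncertain.

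A further 7 well expressed genes fell in A549 and were not called in H1299. SAT1 (ENSG00000130066, chromosome X, 23783173 to 23786226, plus strand), the acetyltransferase that starts polyamine breakdown, had 762, 748 and 746 CPM in the A549 controls and 528, 540 and 549.4 CPM with VGF. In H1299 it stayed between 31.0 and 36.1 CPM in all 6 libraries. The log2 change was -0.48 (SE 0.0506) in A549 and 0.03 (SE 0.0545) in H1299, a difference of 0.51 (SE 0.0743, adjusted p = 0.0174). The fibrillin gene FBN2 (minus strand of chromosome 5, 128257909 to 128659185, ENSG00000138829), part of elastic microfibrils, had 281.7, 296.4 and 289.5 CPM in the A549 controls and 182.9, 150.1 and 172.9 CPM with VGF. In H1299 the groups overlapped (132.0 to 137.5 and 120.3 to 140.1 CPM), and the difference was 0.69 (SE 0.102, adjusted p = 0.0181).

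UNC13B, a priming factor for vesicle exocytosis and the other called member of the secretory granule list beside VGF, had 72.0 to 82.7 CPM in the A549 controls and 52.3 to 55.5 CPM with VGF. Its H1299 libraries ran from 105.4 to 116.8 CPM, with overlapping groups (difference 0.53, SE 0.0825, adjusted p = 0.0208). CKB, the brain-type creatine kinase, had 68.8 to 72.1 and then 46.8 to 51.8 CPM in A549, and 122.7 to 147.5 CPM in H1299 without a separation by vector (difference 0.60, SE 0.0922, adjusted p = 0.0208). In both genes the A549 groups did not overlap.

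PCED1A, a member of the GDSL/SGNH esterase family, had 58.1 to 62.8 and then 43.4 to 48.5 CPM in A549, and 27.4 to 30.5 and then 31.6 to 34.2 CPM in H1299 (difference 0.59, SE 0.0876, adjusted p = 0.0191). The carboxypeptidase M gene, whose symbol CPM is also the unit, had a level of 17.3 to 19.1 and then 11.7 to 13.6 in A549, and of 140.9 to 152.3 and then 153.4 to 179.9 in H1299 (difference 0.68, SE 0.104, adjusted p = 0.0208). Both shifted upward in H1299 without overlap, though neither change was called there (adjusted p = 0.509 and 0.514). RNF128, a membrane-anchored ubiquitin ligase also known as GRAIL, had 6.05 to 9.14 and then 3.28 to 3.71 CPM in A549, and 18.1 to 19.7 and then 18.5 to 23.0 CPM in H1299 (difference 1.27, SE 0.210, adjusted p = 0.0321).

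Of these 7 calls, FBN2 was lost without H1299-CTRL-2 (adjusted p = 0.0522) or H1299-CTRL-3 (0.0589). SAT1 was lost without A549-CTRL-1 (0.0551), H1299-CTRL-2 (0.0522), H1299-VGF OE-1 (0.0518) or H1299-VGF OE-2 (0.0515). CKB was lost without A549-CTRL-1 (0.0598), A549-VGF OE-3 (0.0666), H1299-VGF OE-2 (0.0661) or H1299-VGF OE-3 (0.0679). Among the 12 fits with 1 library left out, PCED1A lost its call in 5, at up to 0.0663, carboxypeptidase M in 6, at up to 0.0715, UNC13B in 8, at up to 0.0715, and RNF128 in 9, at up to 0.107. Without H1299-CTRL-2 the adjusted p was 0.0643 for carboxypeptidase M, 0.0590 for UNC13B and 0.107 for RNF128. For RNF128 it was 0.0609 without A549-VGF OE-2.

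The largest falls in A549 among the called differences were those of SHISA3, KHDRBS3, ADGRB3, PAK3, TENM2 and the authors' locus Homo_sapiens_newGene_12328, which had 68 counts over the A549 controls and none with VGF (at least 23.1-fold lower against a floor of 3 counts over the group). SHISA3 (ENSG00000178343, chromosome 4, 42397839 to 42402487, plus strand), of a family that retains WNT and FGF receptors inside the cell, had 16.6, 14.6 and 15.9 CPM in the A549 controls and 0.991, 1.28 and 0.892 CPM with VGF, 14.7-fold lower over the summed counts. In H1299 it was near its lower limit in all libraries, with 51 counts over the 3 controls and 34 over the 3 VGF libraries. Its difference was 3.37 (SE 0.465, adjusted p = 0.0125, and 0.0518 without H1299-VGF OE-1). The splicing regulator KHDRBS3 (plus strand of chromosome 8, 135457457 to 135656722, ENSG00000131773) had 14.8, 18.7 and 13.6 CPM and then 1.98, 3.40 and 1.90 CPM in A549. Its H1299 libraries ran from 0.777 to 1.39 CPM with overlapping groups. The difference was 2.34 (SE 0.377, adjusted p = 0.0288), a call lost in 9 of 12 fits with 1 library left out, at up to 0.0880 without H1299-CTRL-2, and kept without A549-VGF OE-2 (0.0061).

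ADGRB3 (ENSG00000135298, chromosome 6, 68635367 to 69389511, plus strand), an adhesion GPCR that binds C1q-like proteins at synapses, had 2.65, 2.36 and 2.10 CPM in the A549 controls and 0, 0.204 and 0.173 CPM with VGF. In H1299 it had 6.35 to 7.02 CPM with the empty vector and 6.69 to 8.35 CPM with VGF. The summed counts fell from 240 to 14 in A549 and stood at 869 and 911 in H1299. The difference was 4.27 (SE 0.558, adjusted p = 0.0125).

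PAK3 and TENM2 had no count in any A549 VGF library. PAK3 (ENSG00000077264, chromosome X, 110944285 to 111227361, plus strand), a brain-enriched kinase activated by RAC and CDC42, had 37 counts over the A549 controls, which makes the VGF group at least 12.6-fold lower against a floor of 3 counts over the group. In H1299 it had 8.46 to 9.65 CPM with the empty vector and 7.33 to 9.88 CPM with VGF, and the fitted difference was 6.71 (SE 0.706, adjusted p = 0.0111). In CPM the change was -0.365 in A549 and -0.603 in H1299, so the difference has the other sign on that scale, the only such case among the 29, and it was -0.07 on the log2(FPKM + 1) scale (limma, adjusted p = 0.866). TENM2, a teneurin adhesion protein, had 81 counts over the A549 controls, so the VGF group was at least 27.5-fold lower, while in H1299 it had 116 and 56 counts. Its difference (6.98, SE 1.03, adjusted p = 0.0288) was called in 1 of the 12 fits with a library left out, and it reached up to 0.0729, with 0.0551 without A549-VGF OE-2 and 0.0605 without H1299-CTRL-2. Fitted log2 values of groups without counts depend on the prior count and give no size.

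A further group of calls rested on H1299 or A549 levels under 1 CPM. NRXN3 (ENSG00000021645, chromosome 14, 78170373 to 79868290, plus strand), a presynaptic adhesion protein, had 0.134, 0.136 and 0.0729 CPM in the H1299 controls, 15 counts in all, and no count with VGF. The VGF group was at least 4.72-fold lower against the floor. In A549 it had 7.48 to 8.27 CPM and then 8.75 to 10.1 CPM, so neither line's groups overlapped, and the difference was called (adjusted p = 0.0181). Without H1299-CTRL-2, the H1299 library with the highest A549 transcript levels, the adjusted p was 0.0522.

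RNF43, a ubiquitin ligase that removes WNT receptors, had 0.334, 0.454 and 0.413 CPM in the H1299 controls and 0.0985, 0.150 and 0.0471 CPM with VGF, or 52 and 12 counts. In A549 it ran from 38.6 to 46.3 CPM with overlapping groups (difference -2.03, SE 0.335, adjusted p = 0.0319). KCNK3, an acid-sensitive potassium leak channel, had 0.490, 0.476 and 0.510 CPM in the H1299 controls and 0.0985, 0.0502 and 0.189 CPM with VGF, or 64 and 14 counts. In A549 it ran from 13.8 to 18.9 CPM and then from 17.9 to 25.0 CPM (difference -2.48, SE 0.404, adjusted p = 0.0300). The H1299 groups of both genes did not overlap. In H1299-CTRL-1, H1299-CTRL-2 and H1299-CTRL-3 the counts were 6, 6 and 3 for NRXN3, 15, 20 and 17 for RNF43 and 22, 21 and 21 for KCNK3. Without H1299-CTRL-2 the adjusted p was 0.124 for RNF43 and 0.0763 for KCNK3. RNF43 lost its call in 8 of the 12 fits with a library left out and KCNK3 in 9, at up to 0.124 and 0.109. RNF43 shares 59.5% of its exonic bases with other genes on the same strand and 20.3% on the opposite strand.

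EDA2R and RASL11A had their higher H1299 levels with VGF. EDA2R (ENSG00000131080, chromosome X, 66595637 to 66639298, minus strand), a receptor of ectodysplasin A2 and a known p53 target, had no count in the H1299 controls and 17 counts over the VGF libraries (0.172, 0.10 and 0.141 CPM), at least 6.00-fold higher against the floor. In A549 it had 24.4 to 29.4 and 23.4 to 26.4 CPM (difference 5.54, SE 0.698, adjusted p = 0.0135). RASL11A, a RAS-like small GTPase, had 0.446, 0.340 and 0.316 CPM in the H1299 controls and 0.911, 0.903 and 0.896 CPM with VGF, and 9.32 to 9.97 and then 5.72 to 7.45 CPM in A549 (difference 1.79, SE 0.276, adjusted p = 0.0208). Its VGF libraries lay above the controls in H1299 and below them in A549 without overlap, and it lost its call in 7 of the 12 fits, at up to 0.0715, with 0.0713 without H1299-CTRL-2. The part of traces of the other line in these low levels was not tested.

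ZNF793, a zinc finger gene, had no count in the A549 controls and 17 counts over the A549 VGF libraries (0.239, 0.102 and 0.173 CPM), at least 5.56-fold higher, and 21.6 to 25.5 CPM in H1299 (adjusted p = 0.0208). Its lowest A549 VGF library was OE-2, and the call was kept without it (adjusted p = 0.0199). It was lost in 7 of the 12 fits, at up to 0.0694, with 0.0522 without H1299-CTRL-2. P2RX5-TAX1BP3, a readthrough transcript of neighbouring genes, had 10.1, 9.25 and 14.9 CPM in the H1299 controls and 2.91, 2.33 and 2.14 CPM with VGF, against 1.95 to 2.99 and 2.53 to 6.23 CPM in A549 (difference -3.10, SE 0.451, adjusted p = 0.0174). It shares 46.8% of its exonic bases with P2RX5 and TAX1BP3 on the same strand, so its count depends on how the reads were divided, and it was lost without A549-CTRL-1 (0.0551), H1299-VGF OE-2 (0.0563) or H1299-VGF OE-3 (0.0584).

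**Figure D3:**
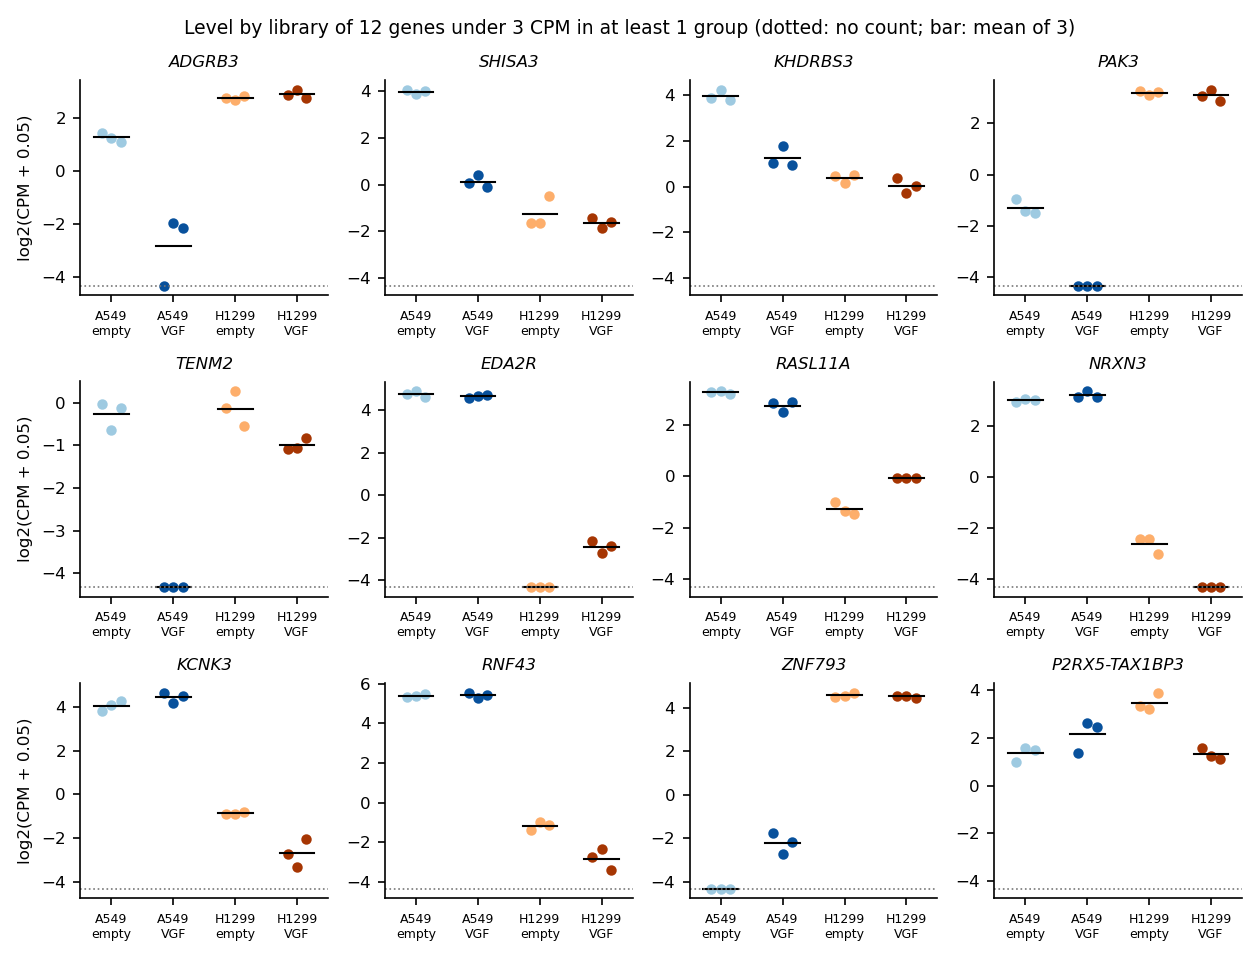
Level by library, as log2(CPM + 0.05), of 12 called genes that lie under 3 CPM in at least 1 group. Each point is a library, each bar the mean of 3 values, and the dotted line marks no count. PAK3 and TENM2 are at the line in all 3 A549 VGF libraries, NRXN3 in all 3 H1299 VGF libraries, EDA2R in the H1299 controls and ZNF793 in the A549 controls.

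Genes that responded in A549 showed on balance no shift in H1299. Of the 143 features called in A549 other than VGF, 118 reached 1 CPM in both lines. Oriented by their A549 direction, their median log2 change was 0.38 in A549, whose values chose them, and 0.009 in H1299, whose libraries are separate. In H1299 64 of the 118 (54.2%) had the same sign as in A549, against 52.7% of all 12358 features at 1 CPM in both lines. Across those features the changes of the 2 lines had a Pearson r of 0.003 and a Spearman rho of 0.055, given as a description over genes, which are not replicates. Of the 143 features 20 were also called for the difference, so for the other 123 the A549 change was called without a called difference between the lines. Over the 12358 features at 1 CPM in both lines the median SE was 0.0865 for the A549 change. It was 0.0861 for the H1299 change and 0.122 for their difference.

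**Figure D4:**
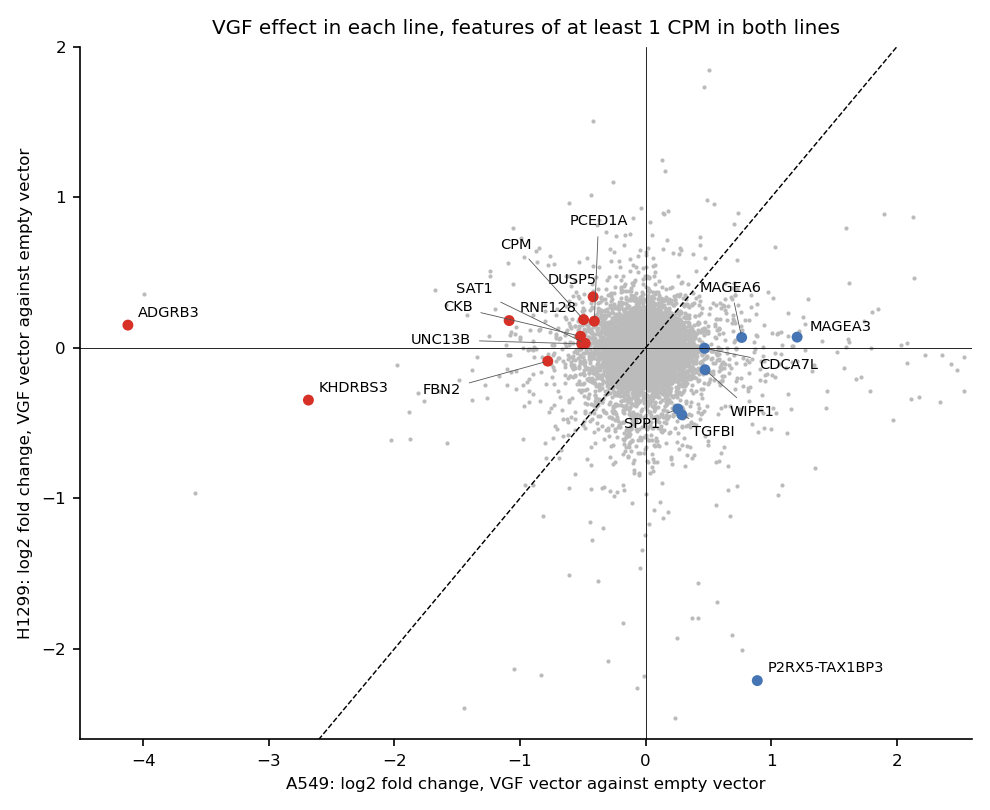
Log2 change with VGF in A549 (x axis) and in H1299 (y axis) for features of at least 1 CPM in both lines, in grey, with the identity as a dashed line. Called differences other than VGF are red where H1299 was above A549 and blue where it was below. The called genes lie along the horizontal axis or in the quadrants of opposite sign, and 60 features, VGF among them, lie outside the frame.

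Gene lists, chosen with earlier results of these data known, were described by the direction of their members' differences. They are set beside all features tested, whose median was -0.02. Of those 45.97% had a positive difference, 6.82% had a negative one at an unadjusted p under 0.05, and 0.159% were called. Mitosis and spindle genes mostly had lower VGF effects in H1299 than in A549. Of 38 tested members 36 had a negative difference, with a median of -0.19, and 18 were below 0 at an unadjusted p under 0.05, with none above. The median change was 0.20 in A549 and 0.01 in H1299. No member was called. PTTG1, the securin that holds separase inactive until anaphase, had the smallest p, with 84.9 to 93.1 CPM in the A549 controls and 108 to 116 CPM with VGF, and 145 to 151 and 144 to 156 CPM in H1299 (difference -0.35, SE 0.0711, adjusted p = 0.0846). Without A549-VGF OE-2 the list median was -0.17, and 12 members were under the unadjusted threshold. DNA replication and G1/S genes had a median of -0.06, with 8 of 35 positive and 4 negative at an unadjusted p under 0.05. The 4 became 2 without A549-VGF OE-2 (median -0.07) and also without H1299-CTRL-2 (median -0.02, with 12 positive).

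TGF-beta pathway genes, which cover ligands, receptors, SMADs and targets such as TGFBI, also mostly had lower effects in H1299. Of 30 tested members 28 had a negative difference (median -0.22), 12 were negative at an unadjusted p under 0.05 and none positive, and TGFBI was the 1 called member. The median change was 0.12 in A549 and -0.09 in H1299. Without A549-VGF OE-2 the list median was -0.22 as before. The mesenchymal list had a median of -0.29 over 28 members, with 9 negative and 3 positive at an unadjusted p under 0.05, and -0.13 without A549-VGF OE-2, the library with endothelial transcripts. The part of those transcripts in it was not tested. CDH2, N-cadherin, had the smallest p of that list (28.1 to 29.8 and 34.6 to 35.7 CPM in A549, 39.0 to 43.6 and 35.1 to 38.4 CPM in H1299, difference -0.43, SE 0.0829, adjusted p = 0.0703). ATF4 and amino acid response genes had a median of -0.14, with 9 of 33 negative at an unadjusted p under 0.05 and none positive, and of -0.09 with 6 negative without H1299-CTRL-2. Its member with the smallest p was ALDH1L2, a mitochondrial folate enzyme. The log2 change of ALDH1L2 was 0.13 in A549 and -0.35 in H1299 (difference -0.48, SE 0.106, adjusted p = 0.119).

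Heat shock chaperone genes mostly had higher effects in H1299. Of 23 tested members 20 had a positive difference, with a median of 0.19, and 8 were positive at an unadjusted p under 0.05 (4.33% of all features), with none negative and none called. The median change was -0.05 in A549 and 0.11 in H1299. HSP90AA1, the inducible cytosolic HSP90, had 1934 to 2048 CPM in the A549 controls and 1719 to 1933 CPM with VGF, and 2951 to 3322 and then 3573 to 3997 CPM in H1299 (difference 0.36, SE 0.0805, adjusted p = 0.120). Unfolded protein response genes had a median of 0.10, with 16 of 21 positive, and nuclear respiratory chain genes 0.07, with 26 of 31 positive, and neither list had a called member. HSPA8, a chaperone that is also a proposed receptor of a VGF peptide, had a log2 change of -0.03 in A549 and 0.30 in H1299. Its difference was 0.33 (SE 0.0753, adjusted p = 0.135). C1QBP, another proposed receptor, had a log2 change of -0.02 in A549 and 0.14 in H1299 (difference 0.16, SE 0.0617, adjusted p = 0.386). Of the 4 proposed receptors listed 3 were tested. GRIA1, the other tested one, had no count in A549 and a log2 change of -0.20 in H1299. Cytosolic ribosomal protein genes had a median of 0.01 over 69 members and mitochondrially encoded genes -0.02 over 13. The first was 0.02 without A549-VGF OE-2, and the second 0.007 without H1299-CTRL-2.

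**Figure D5:**
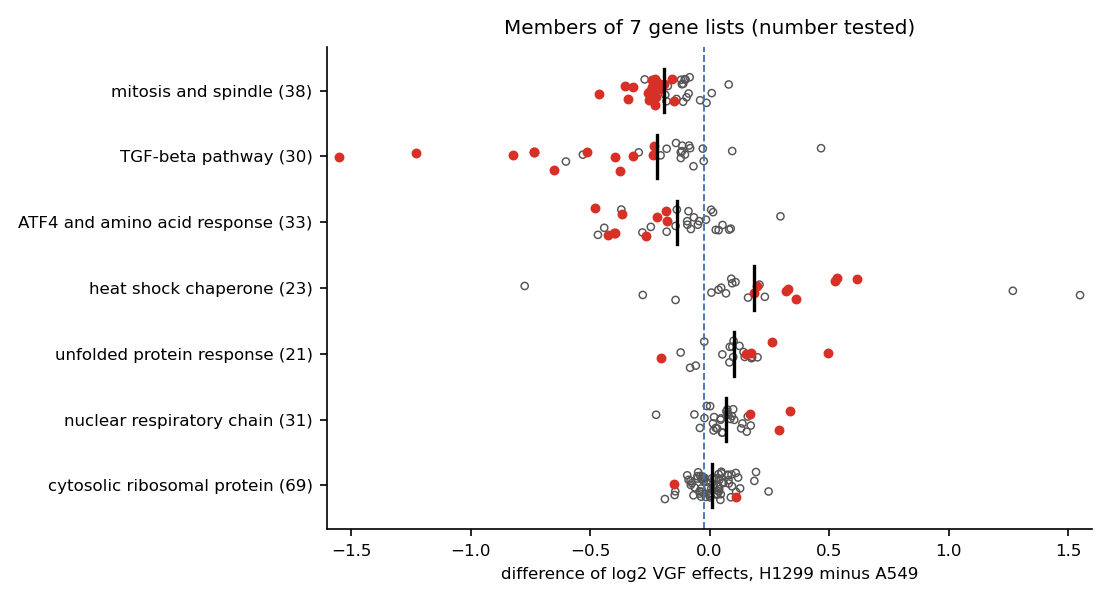
Difference of the log2 VGF effects, H1299 minus A549, for each tested member of 7 gene lists. Filled red points have an unadjusted p under 0.05, black bars are list medians and the dashed line is the median of all features (-0.02). Mitosis and TGF-beta members lie mostly left of the line and heat shock members mostly right of it, and 2 members beyond the frame are drawn at its edge.

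The remaining lists held few calls, and 0.159% of all features were called. The synaptic and neural adhesion list had 3 called members of 23 tested, ADGRB3 and TENM2 positive and NRXN3 negative. At an unadjusted p under 0.05, 2 members were positive and 9 negative, against 4.33% and 6.82% of all features. The list median was -0.49, and -0.46 over the 12 members at 1 CPM in both lines. Without A549-VGF OE-2 these medians were -0.28 and -0.33 and TENM2 was not called. Without H1299-CTRL-2 ADGRB3 was the 1 called member. The actin and PAK list had PAK3 positive and WIPF1 negative among 35, and the WNT list SHISA3 positive and RNF43 negative among 37. The matrix list had FBN2 positive among 25, the ERK list DUSP5 among 30 and the polyamine and urea cycle list SAT1 among 14. In that order 12, 14, 6, 11 and 8 members had a positive difference, against 45.97% of all features. The list medians were -0.13, -0.11, -0.22, -0.10 and 0.009. Without A549-VGF OE-2 they were -0.06, -0.08, -0.13, 0.006 and 0.07, and without H1299-CTRL-2 -0.11, -0.06, -0.17, -0.06 and -0.01. The calls of RNF43, FBN2 and SAT1 were lost without H1299-CTRL-2. CPS1 joined the calls of the polyamine and urea cycle list without A549-VGF OE-2. Liver-type secreted genes (median -1.02 over 21) and lung lineage factors (-1.05 over 19) had no call, and 4 and 5 of their members reached 1 CPM in both lines. On those members the medians were 0.59 and -0.34. Without H1299-CTRL-2 the median of all 21 liver-type genes had the other sign (0.16) and that of the 19 lung lineage factors was -0.59, and on the members at 1 CPM in both lines they were 0.51 and -0.53. For endothelial marker genes the median was -4.77 over 17 members, and -0.67 over the 16 still tested without A549-VGF OE-2.

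Without A549-VGF OE-2 the difference was called for 36 features, of which 26 were among the 29, or 72.2% of the 36 and 89.7% of the 29. TENM2, RNF128 and ERICH6, a gene that stayed under 1 CPM in every library and is named after its values were seen, were lost (adjusted p = 0.0551, 0.0609 and 0.0672). ERICH6 was also lost without H1299-CTRL-2 (0.0898). The 10 that came in include CPS1, the enzyme that opens the urea cycle, with 52.6, 57.7 and 68.4 CPM in the A549 controls, 166.6, 136.5 and 153.6 CPM with VGF and 0.401 to 1.39 CPM in H1299. Its difference was -2.15 with all libraries (adjusted p = 0.0506) and -2.21 without A549-VGF OE-2 (0.0353). KRT80, an epithelial keratin, had 66.1 to 73.6 and then 88.6 to 100.7 CPM in A549 and 24.3 to 28.3 CPM in H1299 (adjusted p = 0.0506 and 0.0286).

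In several of these 10 genes, named after their values were seen, A549-VGF OE-2 lay apart from the other A549 VGF libraries. ZNF160, a zinc finger gene, had 1.31 to 1.98 CPM in the A549 controls, 0, 1.07 and 0.0863 CPM in the 3 VGF libraries and 13.6 to 16.0 CPM in H1299, with a difference of 1.87 with all libraries (adjusted p = 0.434) and 4.94 without OE-2 (0.00213). For ZNF160, OE-2 lay nearest to the control libraries. BCAT1, a branched-chain aminotransferase, had 6.32 to 6.79 CPM in the A549 controls and 11.01, 27.7 and 10.2 CPM with VGF. In H1299 it ran from 158.2 to 182.1 CPM, and its difference went from -1.45 to -0.81 without OE-2 (adjusted p = 0.00391).

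On the X chromosome lay 6 of the 28 called features with an Ensembl ID (21.4%): MAGEA3, MAGEA6, PAK3, EDA2R, SAT1 and RNF128. Of all tested features with an Ensembl ID 3.67% lie there. Of the 6, MAGEA3 and MAGEA6 had negative differences and the other 4 positive ones. The share is given as a description of a set of called genes and was not tested.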

How the data were processed

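Messenger RNA of 12 libraries was analysed, in 4 groups taken from the titles. For each feature the authors deposited a raw count, a whole number, and an FPKM value, which is scaled to length and library size. Per the submitters' processing notes, the build was GRCh38 and DESeq2 was used. For the aligner, counter, annotation release and strand setting: not given in the sources used here. Of 26535 features, 19974 have an Ensembl ID (all found in GENCODE 29) and 6561 are loci named by the authors; 18 stray lines were dropped and 27 symbols restored from dates.

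The counts were fitted with edgeR 4.0.16 (R 4.3.3): TMM scaling, filterByExpr by group (18228 features), 4 group means without a block, the quasi-likelihood F test of the contrast of contrasts, and Benjamini-Hochberg adjustment over all features. The fit had 8 residual degrees of freedom. TMM factors were 0.919 to 0.940 in A549 and 1.06 to 1.09 in H1299. SE is the log2 value over the square root of F. Between replicates the log2 CPM had a median SD of 0.0697 to 0.0810, and pairs of replicates differed by more than sampling noise (chi-square per degree of freedom 7.60 to 20.6). For a group at 0 the floor was 3 counts over its libraries, which covers counting error only. The script was tested on simulated counts.

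VGF was always named, then up to 12 called genes per sign that have a symbol, reach 5 CPM in a group and have separate pair ranges, up to 3 called members per sign of 47 lists, and the member with the smallest p of lists without a call. Members and lists were chosen with earlier results of these data known. Alternatives used DESeq2 1.42.0, limma 3.58.1, other scalings and filters, FPKM with pseudocounts of 1 and 0.1, a replicate block and each library left out. A result that needs a withheld item is not reported here.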

Additional observations from a re-analysis of the deposited data

Results flagged for a closer look

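The 29 differences between lines that passed the edgeR quasi-likelihood test are the results in which the effect of the same vector differed between H1299 and A549. Differences in log2 change, H1299 minus A549, below 0 were -5.52 for VGF, -1.14 for MAGEA3, -0.70 for MAGEA6, -0.73 for TGFBI, -0.66 for SPP1, -0.62 for WIPF1, -0.47 for CDCA7L, -3.10 for P2RX5-TAX1BP3, -5.39 for NRXN3, -5.74 for ZNF793, -2.48 for KCNK3 and -2.03 for RNF43. Differences above 0 were 6.71 for PAK3, 4.27 for ADGRB3, 3.37 for SHISA3, 2.34 for KHDRBS3, 6.98 for TENM2, 5.54 for EDA2R, 1.79 for RASL11A, 1.27 for RNF128, 0.76 for DUSP5, 0.69 for FBN2, 0.68 for the carboxypeptidase M gene CPM, 0.60 for CKB, 0.59 for PCED1A, 0.53 for UNC13B and 0.51 for SAT1.

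A further 2 called features fall outside the rule for named genes and are given after their values were seen. ERICH6 had no count in the A549 controls, 37 counts over the A549 VGF libraries and 98 and 49 counts in H1299 (fitted difference -7.67, adjusted p = 0.0319). The locus Homo_sapiens_newGene_12328 had 68 counts over the A549 controls, none with VGF, and 324 and 258 counts in H1299 (fitted difference 7.43, adjusted p = 0.0125). The fitted values of PAK3, TENM2, NRXN3, EDA2R, ZNF793, ERICH6 and this locus come from groups without counts and give no size.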

How the results depend on the processing

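Of the 29 called features, DESeq2 called 28, limma voom 17, robust estimation 29, the log2(FPKM + 1) fit 15 and the replicate block 7. The number of calls (higher in H1299, lower) was 315 (120, 195) in DESeq2, 19 with limma voom (9 higher), 45 with robust estimation (25 lower) and 41 without a filter (22 lower). With each library left out it ran from 18 to 36, with 8 to 18 higher and 9 to 19 lower. In A549 709 features were called by DESeq2, 334 by limma voom and 52 to 130 with a library left out. In H1299 the counts were 132, 1 and 1 to 4. Labels number the replicates 1 to 3 and do not state that the numbers pair libraries. Deviations of same-numbered libraries had r from -0.133 to 0.0623 over 6 pairs. Other-numbered pairs ran from -0.106 to 0.119. These values over all genes cannot decide whether same-numbered libraries share a batch. With a replicate block within line 21 features were called (4 higher), 63 in A549 and 1 in H1299. Of 710 values of the called features under alternatives 543 kept direction and call, 166 kept direction without the call, and PAK3 turned to -0.0650 with log2(FPKM + 1). The cause was not tested. Differences of genes under 1 CPM are limited by depth.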
